A study of Mus musculus with 20 samples.

Results

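The 10 genes described here lie on both sides of Sorbs2 on mouse chromosome 8: Fat1, Fam149a, Cyp4v3, Tlr3, Pdlim3, Ufsp2, Snx25, Irf2, Enpp6 and Stox2. They were taken by symbol from the deposited tables of normalised counts at 6 weeks and 6 months. All 10 were found in both tables, out of 19222 symbols listed in at least 1 of them. Poly(A) RNA of mouse ventricle was sequenced in 20 libraries. WT mice and Sorbs2 KO mice were sampled without treatment at 6 weeks (3 and 3 libraries) and at 6 months (5 and 5 libraries). A further 4 libraries came from KO mice that received AAV9-Tnnt2-Sorbs2 on postnatal day 2 and were sampled at 6 months (KO+AAV). The KO and KO+AAV mice thus carry the same targeted allele of Sorbs2, and the vector supplies Sorbs2 from outside the locus, under a promoter named for Tnnt2, the troponin T gene of heart muscle. The strain and the construction of the allele were not given in the sources used here. Each library is labelled as a replicate of its group, and p-values measure the spread between these libraries.

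A gene that is targeted in embryonic stem cells is passed on with the DNA around it. Its neighbours can differ between mutant and wild-type mice in ways unrelated to the protein that was lost: the altered locus can change nearby transcription, and flanking sequence of the donor strain stays linked to the allele through backcrossing. A change that follows loss of the protein can appear in any part of the genome. The KO against WT comparison holds both kinds of difference, whereas KO+AAV and KO mice share the allele and differ by the vector. The libraries of KO+AAV and KO mice also differed in a sex marker, given below. KO+AAV against WT holds the allele together with the vector. The labels give no strain, so linked donor DNA was not tested here.

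Sorbs2 itself encodes an adaptor of the actin cytoskeleton and the Z-disc. Its values were 1409.2, 1750.7 and 1989.8 normalised counts in the WT libraries at 6 weeks and 365.1, 333.8 and 275.8 in the KO libraries. At 6 months they were 5351.8, 5398.2, 5136.3, 4561.5 and 4753.4 in WT, 1648.2, 612.3, 593.1, 493.7 and 1755.0 in KO, and 4696.4, 5753.3, 15690.3 and 17923.3 in KO+AAV. The KO mean was 18.9% of the WT mean at 6 weeks and 20.2% at 6 months, and KO libraries 1 and 5 at 6 months stood above the other 3. Xist, which marks female tissue in mice, was expressed at 6 months in 2 of the 5 libraries from WT mice, in 2 of the 4 from vector-treated mice and in 0 of the 5 from untreated KO mice. At 6 weeks it was expressed in 1 of 3 libraries of each genotype. Where leaving out the libraries with Xist ended a call on a neighbour or a gene within 5 Mb, the adjusted p is given beside it. Normalised counts summed to between 11359135 and 13670340 per library at 6 months and to between 6705133 and 8240294 at 6 weeks. The tables were normalised separately by the authors, so levels of the neighbours were compared only within an age.

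In the mm10 build (GRCm38, GENCODE M21 gene models), Sorbs2 spans chr8:45507788-45827906 on the plus strand, and the 10 neighbours together span 2.51 Mb around it. On the proximal side lie Fat1 (chr8:44935447-45052257, plus strand, 455.5 kb from Sorbs2), Cyp4v3 (chr8:45304944-45333216, minus, 174.6 kb), Fam149a (chr8:45336717-45382291, minus, 125.5 kb) and Tlr3 (chr8:45395665-45411080, minus, 96.7 kb). Distal to Sorbs2 come Pdlim3 (chr8:45885461-45919548, plus, 57.6 kb), Ufsp2 (chr8:45975528-45996958, plus, 147.6 kb) and Snx25 (chr8:46033261-46152159, minus, 205.4 kb). Farther out are Irf2 (chr8:46739732-46847458, plus, 911.8 kb), Enpp6 (chr8:46986887-47096762, plus, 1159.0 kb) and Stox2 (chr8:47180048-47446362, minus, 1352.1 kb). All 10 are annotated as protein-coding genes.

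The neighbours are unrelated in function. At the cell surface and in endosomes, Fat1 is a giant cadherin of cell polarity and migration, and Tlr3 is the Toll-like receptor for double-stranded RNA. Pdlim3 is a PDZ and LIM domain protein that binds alpha-actinin at the Z-disc. Among the enzymes, Enpp6 is a phosphodiesterase that releases choline headgroups, Cyp4v3 is a fatty acid hydroxylase of cytochrome P450 family 4, and Ufsp2 is the protease that matures and removes the ubiquitin-like modifier UFM1. Snx25 is a sorting nexin of endosomal traffic. Irf2 is a transcription factor of the interferon regulatory family, and Stox2 encodes a storkhead-box protein of the winged-helix class. The function of Fam149a is poorly known.

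The windows around the RefSeq transcription starts (GRCm38.p6, 250 bases before to 50 after the start) are shown for the 3 neighbours that changed at 6 months, Fat1, Enpp6 and Stox2, and for Ufsp2, which did not pass the test but shares its start region with a gene that did. Each is written 5′ to 3′ on the strand of the gene, with CpG dinucleotides in capitals. The windows are chr8:44949958-44950257 on the plus strand for Fat1, chr8:46986637-46986936 on the plus strand for Enpp6, chr8:47352299-47352598 on the minus strand for Stox2 and chr8:45975278-45975577 on the plus strand for Ufsp2.
Fat1: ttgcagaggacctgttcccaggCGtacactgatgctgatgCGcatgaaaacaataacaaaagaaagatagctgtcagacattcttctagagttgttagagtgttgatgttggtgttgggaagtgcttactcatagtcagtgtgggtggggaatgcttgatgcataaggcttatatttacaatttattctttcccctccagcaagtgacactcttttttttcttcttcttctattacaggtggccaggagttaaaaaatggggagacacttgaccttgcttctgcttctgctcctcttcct
Enpp6: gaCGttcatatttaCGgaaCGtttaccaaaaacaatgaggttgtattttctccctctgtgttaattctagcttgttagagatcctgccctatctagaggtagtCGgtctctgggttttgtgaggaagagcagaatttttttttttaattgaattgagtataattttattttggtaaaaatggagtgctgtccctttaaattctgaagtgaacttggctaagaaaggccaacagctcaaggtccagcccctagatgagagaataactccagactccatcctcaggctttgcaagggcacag
Stox2: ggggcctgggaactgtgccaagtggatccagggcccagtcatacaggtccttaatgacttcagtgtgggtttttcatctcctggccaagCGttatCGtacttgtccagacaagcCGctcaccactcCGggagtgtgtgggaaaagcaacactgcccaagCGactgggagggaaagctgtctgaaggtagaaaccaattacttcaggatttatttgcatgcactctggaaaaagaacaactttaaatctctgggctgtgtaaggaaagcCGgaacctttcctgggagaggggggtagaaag
Ufsp2: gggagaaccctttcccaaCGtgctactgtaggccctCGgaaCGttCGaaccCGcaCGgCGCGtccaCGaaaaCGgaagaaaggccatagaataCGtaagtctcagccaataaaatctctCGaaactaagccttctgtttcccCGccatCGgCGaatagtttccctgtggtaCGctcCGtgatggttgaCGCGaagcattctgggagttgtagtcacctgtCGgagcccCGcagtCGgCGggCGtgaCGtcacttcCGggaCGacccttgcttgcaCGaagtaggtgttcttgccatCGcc
CpG dinucleotides numbered 2 in the Fat1 window, 4 in that of Enpp6, 6 in that of Stox2 and 29 in that of Ufsp2. Over 32851 promoters of the same table the median was 7, and 47.9% held 6 or fewer. The other windows held 4 for Fam149a, 10 for Tlr3, 15 for Pdlim3, 17 for Cyp4v3, 19 for Irf2 and 36 for Snx25. The RefSeq start lies 14761 bases inside the GENCODE gene for Fat1 and 94014 bases inside for Stox2, so these windows may not be the starts used in ventricle, and the counts describe the printed letters only.

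Motif searches on both strands gave no feature shared by the 3 neighbours that changed. AANNGAAA, the core recognised by interferon regulatory factors, was found in 5 of 10 windows (Fat1, Fam149a, Cyp4v3, Tlr3 and Irf2) and in 23.9% of all promoters. The Irf2 window held 2 copies that overlap each other. GGAATG, the MCAT element recognised by TEAD factors, was found in the Fat1 window and in 2 copies in the Pdlim3 window, and in 14.7% of all promoters. CACGTG, an E-box, was found only in the Cyp4v3 window among the 10, and in 7.2% of all promoters. No copy of any of these motifs was found in the windows of Enpp6, Stox2, Ufsp2 and Snx25.

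Per kilobase of annotated exon, the levels in WT ventricle at 6 months spread widely. Pdlim3, the gene nearest to Sorbs2, was highest at 173.1 ± 66.2 normalised counts per kb (SD, n = 5), and Ufsp2 followed at 66.7 ± 7.13. Irf2 at 47.7 ± 4.88 and Snx25 at 43.2 ± 7.32 overlapped each other, as did Snx25 and Tlr3 at 29.7 ± 4.94. A lower set of Fat1 (17.7 ± 3.51), Cyp4v3 (16.6 ± 3.34), Fam149a (14.5 ± 1.79) and Stox2 (14.2 ± 2.10) formed an unbroken chain in which each overlapped the next. Enpp6 stood apart at the bottom, at 2.91 ± 0.841 per kb. At 6 weeks Pdlim3 again led, at 101.4 ± 17.5 per kb (SD, n = 3), and the other 9 genes, from Ufsp2 at 27.2 ± 9.38 to Fam149a at 6.30 ± 0.817, overlapped each with the next in order.

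**Figure D1:**
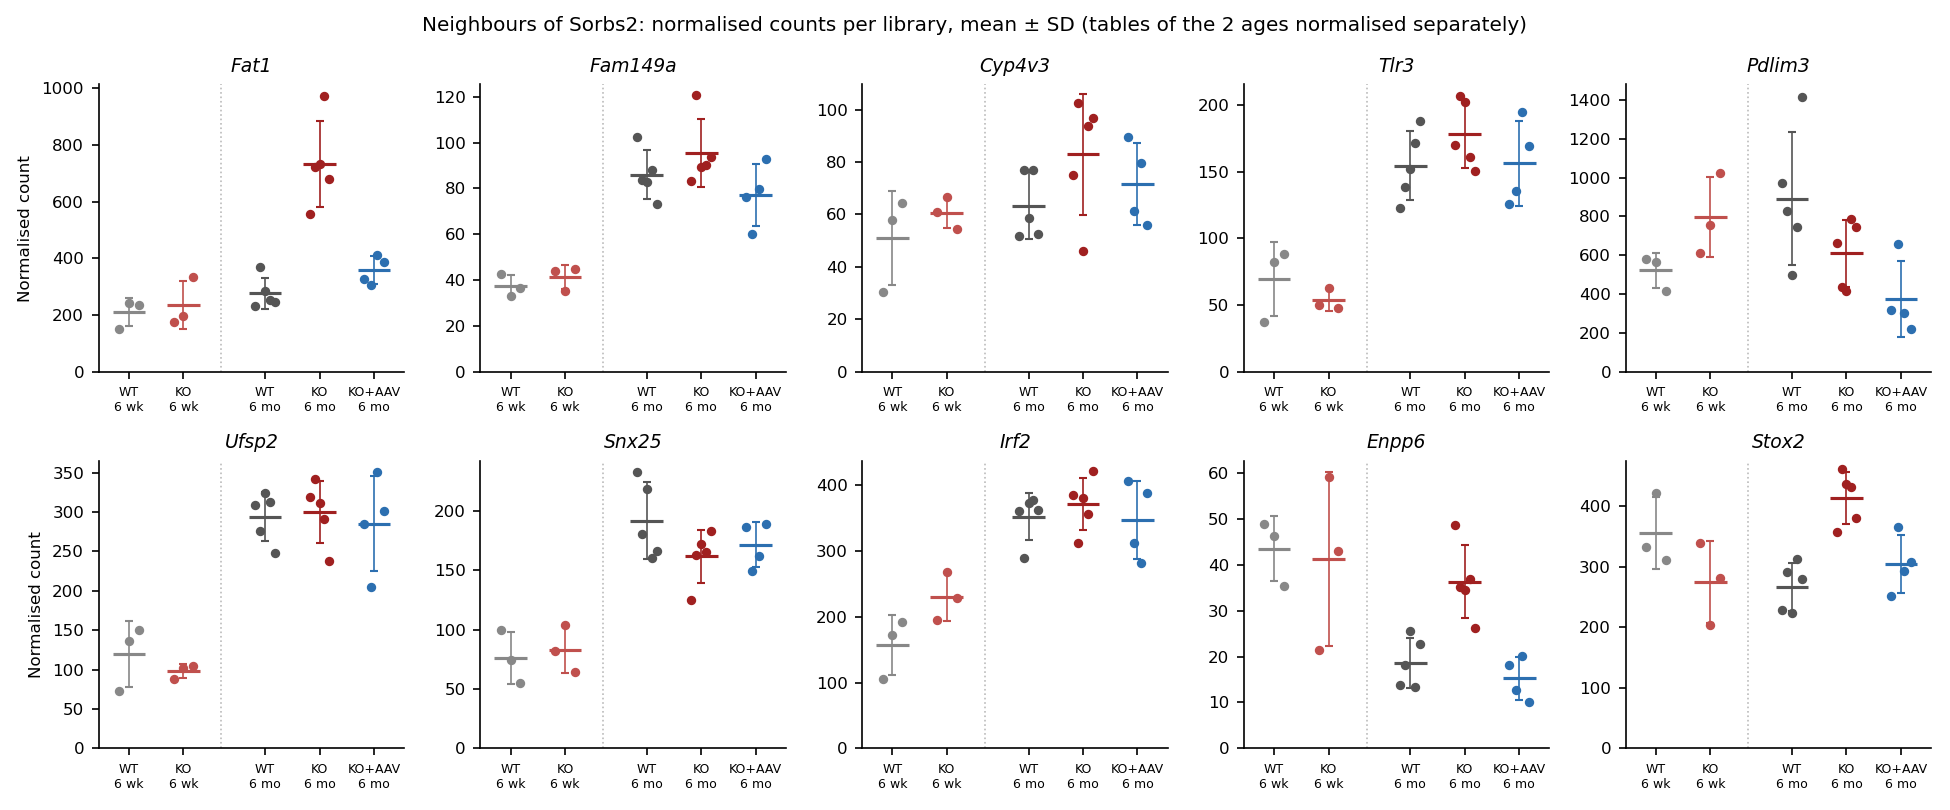
Normalised counts of each of the 10 neighbours in every library (points), with the group mean ± SD (bars), on a linear axis from 0 in a panel per gene; the dotted line parts the tables of the 2 ages. Fat1, Enpp6 and Stox2 in the KO libraries at 6 months lie above every WT library of that age, and Fat1 and Enpp6 in the KO+AAV libraries lie below every KO library.

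At 6 months, 3 of the 10 neighbours rose in KO against WT ventricle, none fell, and 7 did not pass the test (limma, adjusted p under 0.05). Over all genes tested, 16.3% passed in that comparison, and 8.13% passed as higher. The 3 genes, Fat1, Enpp6 and Stox2, are among the 4 neighbours that lie farthest from Sorbs2. None of the neighbours between 57.6 and 205.4 kb passed. In that range 1700029J07Rik, which is not among the 10, did pass at 125.7 kb and is described below. The median log2 change over the 10 neighbours was 0.18, against 0.00 over all genes. In bulk tissue a change in a level cannot be told apart from a change in the share of the cells that hold the RNA.

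Fat1 showed the largest change of the 10. Its values were 233.4, 368.9, 285.5, 252.0 and 244.9 normalised counts in WT, 557.2, 721.1, 732.0, 971.6 and 680.3 in KO, and 327.5, 306.4, 410.0 and 388.7 in KO+AAV. Every KO library lay above every WT and every KO+AAV library, while the WT and KO+AAV ranges overlapped. The rise from WT to KO was 1.40 on the log2(value + 1) scale (SE 0.16, 95% interval 1.06 to 1.74, 2.63-fold, adjusted p = 3.29e-05 by limma). With the vector, Fat1 fell by 1.02 against KO (SE 0.17, adjusted p = 0.00235 by limma). The remaining difference of KO+AAV from WT was 0.38 (95% interval 0.02 to 0.74, adjusted p = 0.258 by limma). Among libraries without Xist the changes were 1.31 and -1.06, both past the threshold. Gm2366, on the opposite strand, overlaps 3.1% of the Fat1 exon bases, and whether the counting kept the strands apart is not known here.

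Enpp6 was the lowest of the 10 and showed the second largest rise. Its values were 13.7, 18.1, 25.5, 13.3 and 22.7 normalised counts in WT, 48.6, 35.1, 34.6, 37.0 and 26.3 in KO, and 18.1, 12.7, 20.2 and 10.1 in KO+AAV. The KO libraries again lay above all others, although the lowest KO value, 26.3, was close to the highest WT value, 25.5. The rise was 0.94 on the log2 scale (SE 0.27, 1.92-fold, adjusted p = 0.0251 by limma), and with the vector Enpp6 fell by 1.22 against KO (SE 0.29, adjusted p = 0.0136 by limma). KO+AAV differed from WT by -0.27 (95% interval -0.88 to 0.33). The KO rise was no longer past the threshold without WT library 1 (adjusted p = 0.067 by limma), WT library 4 (0.0645), KO library 1 (0.0654) or both KO libraries of higher Sorbs2 (0.076), nor among libraries without Xist (0.0734). The fall with the vector stayed past it in each of the 19 alternatives run.

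Stox2 rose less and more evenly. Its values were 228.0, 290.8, 223.1, 312.0 and 280.1 normalised counts in WT, 356.9, 461.4, 436.7, 431.7 and 381.0 in KO, and 251.5, 366.1, 292.0 and 308.3 in KO+AAV. KO did not overlap WT, but the second KO+AAV library, at 366.1, lay inside the KO range. The rise was 0.64 on the log2 scale (SE 0.14, 95% interval 0.35 to 0.93, 1.55-fold, adjusted p = 0.00455 by limma). The change with the vector was -0.45 (SE 0.14, adjusted p = 0.0574 by limma), which did not pass. It passed in 5 of 19 alternatives. Among them were the fits without that second KO+AAV library (adjusted p = 0.0361 by limma), without the first KO library (0.0425), without both KO libraries of higher Sorbs2 (0.0436) and with equal library totals (0.0376). Among libraries without Xist the change was smaller, at -0.29 (adjusted p = 0.375 by limma). KO+AAV differed from WT by 0.19 (95% interval -0.12 to 0.50).

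**Figure D2:**
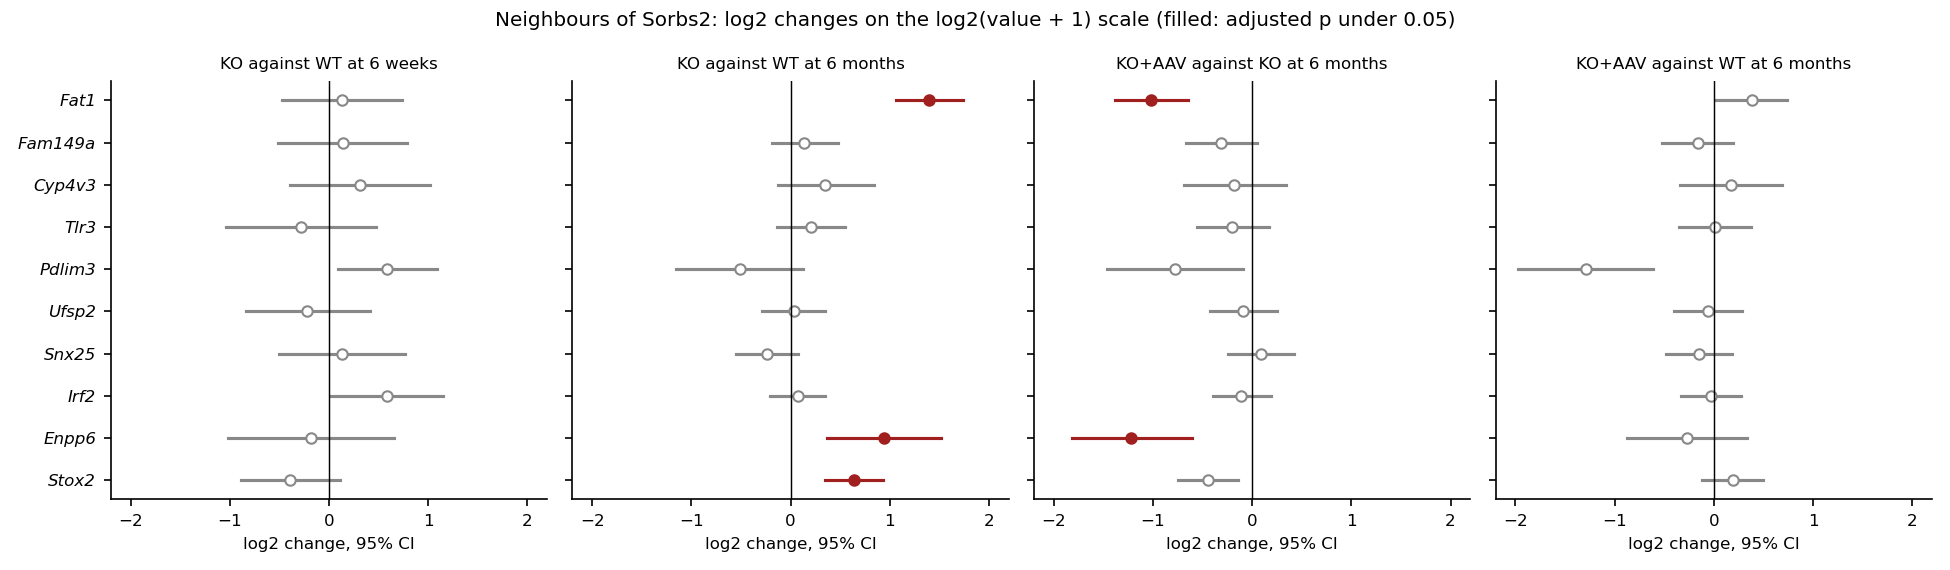
Log2 change with its 95% interval for each neighbour in the 4 comparisons (a panel each); filled points passed an adjusted p of 0.05. The 3 changes past it for KO against WT at 6 months are 1.40 for Fat1, 0.94 for Enpp6 and 0.64 for Stox2, and the 6-week panel holds none.

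Changes in cell type markers at 6 months differed between the lists. Of 10 fibroblast markers, 5 rose in KO against WT and none fell, with a median log2 change of 0.59, and 3 fell with the vector. Their summed level was 29227.0 to 43676.8 normalised counts in WT, 36545.0 to 54378.0 in KO and 30928.4 to 40427.3 in KO+AAV. Of 12 mural cell markers, 2 rose and 2 fell in KO, with a median of 0.00, and the sums were 46593.6 to 59096.7 in WT, 61990.1 to 104063.1 in KO and 54234.6 to 58920.8 in KO+AAV. Without Des, the desmin gene, which heart muscle also expresses, the other 11 summed to 12417.4 to 19640.3 in WT, 8961.9 to 11480.3 in KO and 11153.0 to 14163.3 in KO+AAV. Of 10 cardiomyocyte markers, 4 fell in KO (median -0.66) and 3 rose with the vector, with sums of 1418800.0 to 1685606.2 in WT, 763872.5 to 1120820.0 in KO and 1222450.4 to 1742790.0 in KO+AAV. No marker of these 3 lists was at 0 in any library. Their part in the changes of Fat1, Enpp6 and Stox2 was not tested.

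Among the genes with a mean of at least 100 at 6 months (9468 ranked, 14 libraries), those most like Fat1 in pattern were Trim16 (Pearson r = 0.974), Igfbp5 (0.971) and Prrx1 (0.970). Igfbp5, which encodes a secreted binding protein of insulin-like growth factors, averaged 1181.5 normalised counts in WT, 3692.3 in KO and 1331.3 in KO+AAV. The genes most like Enpp6 were Anxa1 (r = 0.859) and the fibrillar collagen genes Col5a2 (0.838) and Col1a2 (0.832). Those most like Stox2 were Rfx7 (r = 0.943), Adamts20 (0.892) and Dpysl3 (0.884). None of these 9 genes lies on chromosome 8, which holds 957 of the 18932 symbols placed. With so small a share, 9 genes say little about place. The libraries are the same for every gene and include the group differences, so these values are descriptions.

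The 7 neighbours that did not pass had intervals of different width. Ufsp2 read 309.5, 275.8, 324.8, 312.2 and 248.2 normalised counts in WT, 318.5, 342.5, 311.4, 291.1 and 237.6 in KO, and 285.1, 204.6, 350.9 and 301.2 in KO+AAV, with a KO change of 0.03 (95% interval -0.29 to 0.35). Irf2 changed by 0.07 (-0.21 to 0.35) and Fam149a by 0.14 (-0.19 to 0.48). These intervals leave out the point estimate for Stox2, 0.64, which has an interval of its own. Tlr3 changed by 0.21 (-0.14 to 0.55), Snx25 by -0.24 (-0.55 to 0.07) and Cyp4v3 by 0.35 (-0.13 to 0.84). Of these, only the Cyp4v3 interval includes the Stox2 estimate. Adjusted p over the 7 ranged from 0.291 to 0.942 by limma. Group means for the receptor Tlr3 were 154.5 ± 25.7 normalised counts in WT (SD, n = 5), 178.0 ± 25.1 in KO (n = 5) and 156.2 ± 31.8 in KO+AAV (n = 4), all overlapping. Fam149a at 86.1 ± 10.6, 95.5 ± 14.7 and 77.2 ± 13.6, Cyp4v3 at 63.3 ± 12.7, 82.8 ± 22.9 and 71.6 ± 15.6, and Snx25 at 191.7 ± 32.5, 161.6 ± 22.1 and 171.6 ± 19.2, in the same order of groups, overlapped likewise.

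Pdlim3 behaved unlike the others at 6 months. Its values were 972.2, 827.6, 495.8, 743.5 and 1416.9 normalised counts in WT, 662.3, 438.2, 415.1, 788.2 and 743.1 in KO, and 320.2, 656.9, 301.8 and 218.5 in KO+AAV. Of the KO+AAV libraries, 3 lay below every WT and KO library, and the second lay within both ranges. The KO+AAV mean was 42.0% of the WT mean, a change of -1.29 (SE 0.32, 95% interval -1.97 to -0.61) with an unadjusted p of 0.00106 and an adjusted p of 0.0599 by limma. Without the second KO+AAV library the adjusted p was 0.016 by limma, and without the third WT library it was 0.0381. Those were the only 2 of 18 alternatives that passed, and the highest adjusted p among the 18 was 0.274 by limma. KO against WT gave -0.51 (95% interval -1.16 to 0.13) and KO+AAV against KO gave -0.78 (-1.46 to -0.09, adjusted p = 0.125 by limma).

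In KO+AAV against KO, 2 of 10 neighbours fell, Fat1 and Enpp6, and none rose, beside 11.2% of all genes past the test in that comparison and 5.69% past it as lower. In KO+AAV against WT, 0 of 10 passed by limma, beside 1.33% of all genes. An unadjusted p under 0.05 was reached by 2 of them (Fat1 and Pdlim3), a share of 20.0% beside 18.3% of all genes. In KO against WT the groups did not overlap for 3 neighbours, all higher, beside 13.8% of all genes (6.56% higher). With the vector, KO+AAV and KO did not overlap for 2 neighbours, both lower, beside 14.1% of all genes (7.44% lower). No neighbour (0 of 10) was free of overlap between KO+AAV and WT, beside 5.4% of all genes. The comparisons at 6 months share libraries, so the rise in KO and the fall with the vector both rest on the same 5 KO libraries.

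At 6 weeks, 0 of 10 neighbours passed in KO against WT by limma, where 0.589% of all genes passed. Of the 10, Pdlim3 and Irf2 had an unadjusted p under 0.05, beside 15.4% of all genes, and in both the groups did not overlap, which held for 21.2% of all genes (10.9% with KO higher). Pdlim3 read 580.9, 566.3 and 418.1 normalised counts in WT and 611.8, 756.4 and 1022.4 in KO, a difference of 0.59 (95% interval 0.09 to 1.09, adjusted p = 0.246 by limma). Irf2 read 105.5, 173.0 and 192.9 in WT and 194.8, 268.9 and 228.7 in KO, a difference of 0.59 (0.02 to 1.15, adjusted p = 0.3 by limma). All KO libraries were higher in both, and the exact two-sided permutation p of 0.1 is the smallest that 3 against 3 libraries allow.

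The neighbours that rose at 6 months showed no such rise at 6 weeks. Fat1 stood at 152.2, 242.1 and 235.4 normalised counts in WT and 175.5, 196.9 and 332.5 in KO, a change of 0.13 (95% interval -0.47 to 0.74). Stox2 stood at 332.7, 422.2 and 311.4 in WT and 338.7, 204.0 and 281.7 in KO, a change of -0.39 (-0.89 to 0.11). Enpp6 stood at 49.0, 46.2 and 35.5 in WT and 21.5, 59.2 and 43.0 in KO, a change of -0.18 (-1.02 to 0.66). All 3 genes overlapped between the groups. The KO effect was larger at 6 months by 1.26 for Fat1 (SE 0.32, adjusted p = 0.0321) and by 1.03 for Stox2 (SE 0.27, adjusted p = 0.0353), in a test of the difference that 4.08% of all genes passed (1.99% with the larger value at 6 months). With libraries scaled to equal totals the Fat1 difference was 1.33 with an adjusted p of 0.055. For Enpp6 the difference was 1.12 (SE 0.47, adjusted p = 0.198) and for Pdlim3 it was -1.11 (SE 0.38, adjusted p = 0.101), and neither passed. The 2 ages come from separate tables and separate mice, so age and table cannot be told apart. Sums of 6 atrial markers (Sln, Myl7, Myl4, Nppa, Nr2f2 and Bmp10) also lay apart in WT between the 2 tables, though these were normalised separately. The 6 markers summed to 96096.7 to 183631.3 normalised counts in WT and 122167.6 to 225980.5 in KO at 6 weeks. At 6 months the sums were 6061.7 to 10049.3 in WT and 37558.9 to 127072.3 in KO. Of the 6, 3 were tested in KO against WT at 6 months, and only Nppa passed, as higher. The KO sums were not split by marker. A difference in the tissue taken at each age was not tested and cannot be told apart from age.

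**Figure D3:**
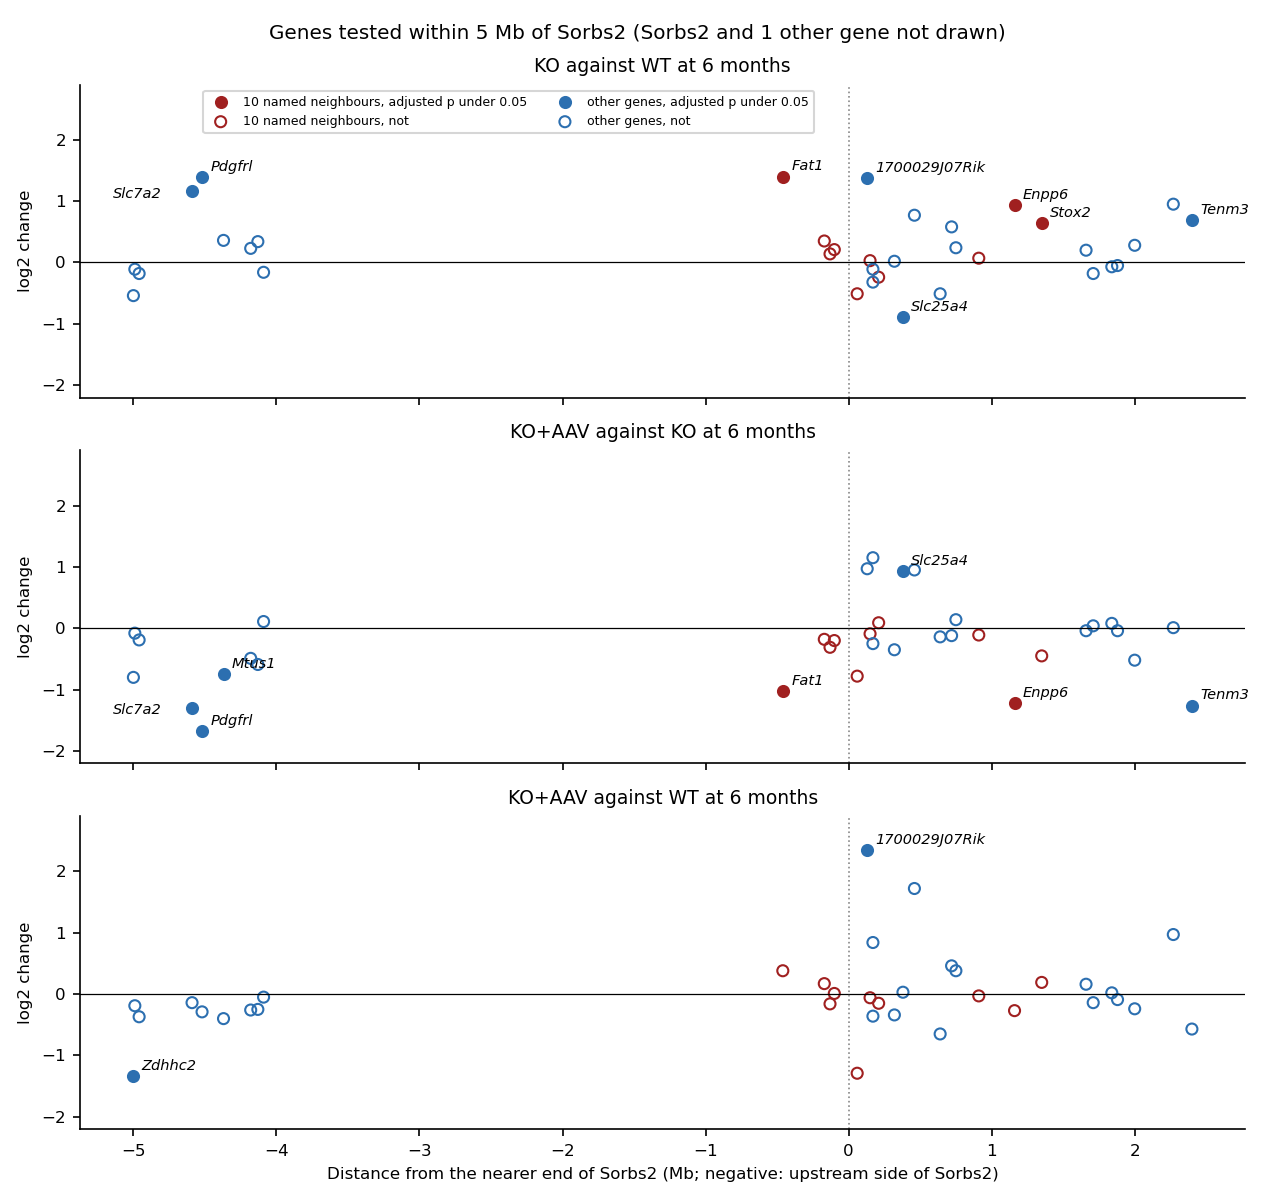
Log2 change of the genes tested within 5 Mb of Sorbs2 against distance from its nearer end (Mb), in the 3 comparisons at 6 months, with 1 gene not drawn; filled points passed an adjusted p of 0.05. In KO against WT, 8 of 36 passed, spread from the nearest class to beyond 4 Mb, and in KO+AAV against WT only 1700029J07Rik and Zdhhc2 passed.

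The genes between and beyond the 10 neighbours set these changes in place. Within 5 Mb of Sorbs2, 36 genes other than Sorbs2 were tested at 6 months, and 8 of them (22.2%) passed in KO against WT, 7 higher and 1 lower. On the rest of chromosome 8, 106 of 663 passed (16%). By distance, 3 of 13 passed under 0.5 Mb, 0 of 5 between 0.5 and 1 Mb, 2 of 7 between 1 and 2 Mb and 3 of 11 between 2 and 5 Mb. At 6 weeks 0 of 35 passed within 5 Mb by limma, and 7 had an unadjusted p under 0.05 (20.0%, beside 13.4% on the rest of the chromosome and 15.4% of all genes). The 8 genes at 6 months were Fat1, Enpp6, Stox2, 1700029J07Rik, Tenm3, Slc7a2 and Pdgfrl, which rose, and Slc25a4, which fell. Among libraries without Xist the rises of Slc7a2 (adjusted p = 0.0995 by limma) and Tenm3 (0.124) did not pass. In KO+AAV against KO, 8 of 36 passed within 5 Mb (22.2%), 1 higher and 7 lower. The share was 13.1% on the rest of chromosome 8 and 11.2% of all genes. Of the 8 genes that passed in KO against WT, 6 passed in the opposite direction with the vector. Only 1700029J07Rik of those 8 also passed, in the same direction, in KO+AAV against WT. The same KO libraries serve both of the first comparisons, and the like shares over all genes called were not counted. These counts are therefore not a result about the region. Between KO+AAV and WT, 2 of 36 passed within 5 Mb (5.56%), against 1.96% on the rest of chromosome 8.

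1700029J07Rik, a protein-coding gene named only by its clone, lies between Pdlim3 and Ufsp2 (chr8:45953606-45975252, minus strand, 125.7 kb from Sorbs2). It is transcribed away from Ufsp2, with 276 bases between their starts, and the 2 start windows share 225 bases, so that most of the Ufsp2 sequence printed above lies before both genes. Its values at 6 months were 7.80, 21.9, 17.9, 41.0 and 14.4 normalised counts in WT, 77.7, 35.1, 33.7, 41.4 and 69.8 in KO, and 137.3, 174.5, 71.1 and 48.7 in KO+AAV. Every KO+AAV library lay above every WT library, whereas KO overlapped both. KO+AAV exceeded WT by 2.35 on the log2 scale (SE 0.44, 5.09-fold, adjusted p = 0.0142 by limma), and KO exceeded WT by 1.38 (SE 0.42, adjusted p = 0.0339). The first did not pass without the first KO+AAV library (adjusted p = 0.0545 by limma) or among libraries without Xist (0.102), and the KO rise was lost in 9 of 20 alternatives. At 6 weeks the order was the opposite: 189.1, 137.5 and 134.1 in WT and between 88.0 and 114.7 in the 3 KO libraries, without overlap (change -0.59, adjusted p = 0.252 by limma). The KO effect differed between the ages by 1.97 (SE 0.48, adjusted p = 0.0199). Ufsp2, across the shared start region, changed by 0.03, -0.09 and -0.06 in the 3 comparisons at 6 months.

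**Figure D4:**
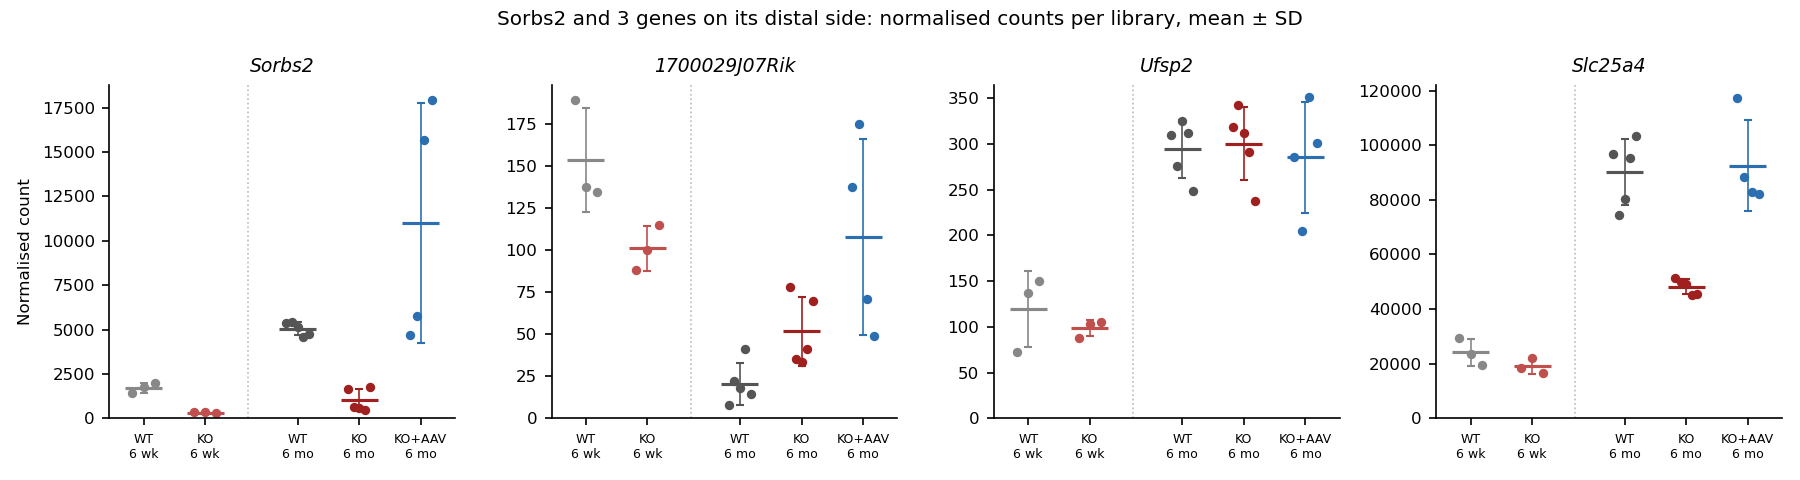
Normalised counts of Sorbs2, 1700029J07Rik, Ufsp2 and Slc25a4 in every library (points) by group, with the mean ± SD (bars), on linear axes from 0. The KO+AAV libraries of 1700029J07Rik, at 48.7 to 174.5, lie above the WT libraries of 6 months, at 7.80 to 41.0, while the Ufsp2 groups overlap and the KO libraries of Slc25a4 at 6 months lie below the others of that age.

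Within 1 Mb, 18 genes were tested at 6 months, 8 of them among the 10 neighbours, and of the other 10 only 1700029J07Rik and Slc25a4 passed in KO against WT. Slc25a4, the ADP/ATP carrier of heart mitochondria, lies 378.9 kb distal of Sorbs2. Its values were 96716.6, 74448.6, 80463.6, 95163.8 and 103485.6 normalised counts in WT, 51422.9, 49816.3, 49088.6, 45092.6 and 45576.1 in KO, and 117188.8, 88222.4, 82695.0 and 82051.6 in KO+AAV. All KO libraries lay below all others. It fell by 0.89 in KO (SE 0.17, adjusted p = 0.00241 by limma) and rose by 0.93 with the vector (SE 0.18, adjusted p = 0.00587), and KO+AAV differed from WT by 0.03. Without the filter on low values both calls missed the threshold (adjusted p = 0.0603 and 0.0804 by limma), as did the second among libraries without Xist (0.0703). Helt, Acsl1, Ankrd37, Lrp2bp, Cfap97, Cenpu and Primpol passed in no comparison in which they were tested. Ccdc110, 106.7 kb distal of Sorbs2, was listed only at 6 months and did not meet the filter, so it was not tested. It read 5.85, 106.5, 1.89, 27.7 and 17.5 normalised counts in WT. KO libraries read 0 to 1.09 and KO+AAV libraries 0 to 0.961, all below every WT library. Separation from WT in either direction held for 13.8% (KO) and 5.4% (KO+AAV) of the genes that met the filter. The share of genes below WT in both groups was not counted. The lowest WT value, 1.89, is near 0, and the cause was not tested.

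Relatives of the neighbours elsewhere in the genome gave small counts at 6 months and none at 6 weeks. Of 7 genes tested among the FAT, Dachsous and CELSR cadherins and Fjx1, 3 rose in KO: Fat1, its fellow cadherin Dchs1 (0.55, adjusted p = 0.0439 by limma, a call lost in 12 of 20 alternatives) and Fjx1, which encodes a Golgi protein related to the kinase four-jointed (1.63, adjusted p = 0.00222), and Fat1 and Fjx1 fell with the vector. In the ENPP family 2 of 6 rose, Enpp6 and Enpp1, the enzyme that makes pyrophosphate (1.43, adjusted p = 0.00023 by limma), and both fell with the vector. Of 7 PDZ-LIM genes, and their binding partner Actn2, 0 passed in KO against WT, and with the vector 2 fell, Pdlim1 (-0.82, a call lost in 10 of 19 alternatives) and Pdlim5 (-0.84, lost in 2 of 19). In Toll-like receptor 3 signalling 2 of 11 rose, the adaptor Traf3 (0.85) and the transcription factor Irf7 (0.82), and Irf7 was also the only 1 of 8 interferon regulatory factors tested to pass, while 0 of 3 genes of IRF2-binding proteins did. The call on Irf7 was lost in 14 of 20 alternatives. Traf3 fell with the vector, a call lost in 1 of 19 alternatives, and Irf7 did not pass there. In UFM1 conjugation 1 of 8 rose, Ufm1 itself (0.48, adjusted p = 0.035 by limma, a call lost in 11 of 20 alternatives). With the vector Ufm1 fell, a call lost in 10 of 19 alternatives. In cytochrome P450 family 4 1 of 6 fell, Cyp4b1 (-0.89, adjusted p = 0.0007 by limma), which rose with the vector (0.94), as did Cyp4f16 (0.96), whose call was lost in 13 of 19 alternatives. Of 4 PX-RGS sorting nexins 0 passed, and of 4 STOX and FAM149 paralogues only Stox2 did. No gene of these lists passed in KO+AAV against WT. Over all genes the share past the test at 6 months was 16.3% in KO relative to WT and 11.2% after the vector.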

How the data were processed

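The values deposited by the authors are a signal, fractional normalised counts of each gene, in a table for each age that was normalised on its own. Per the submitters' processing notes the build was mm10, and the aligner, counter and strand setting were not given in the sources used here. Of the 10 genes, 5 share 1.3% to 8.2% of exon bases with another gene. Within 0.1 of a step, 75.4% to 91.6% of low values at 6 months and 38.4% to 84.0% at 6 weeks were whole multiples, so reads were not recovered, count tests were not run, and the depth behind single values is unknown.

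Values were transformed as log2(value + 1). Genes of at least 10 in at least 3 libraries (6 weeks) or 4 (6 months) were tested with limma 3.58.1 in R 4.3.3 (trend, two-sided), with 1 model for the 3 groups at 6 months and Benjamini-Hochberg adjustment over all genes, threshold 0.05. Effects at the ages were compared over their combined standard error. Coordinates came from GENCODE M21, which placed 98.5% of symbols, and start windows from RefSeq, which matched 10 of 10 genes. Values of 1 gene within 1 Mb are not reported here, though it is counted. The fits were checked on simulated data. The genes, the gene families and the markers were chosen with earlier results of these data known. Named genes were the 10 neighbours, genes within 1 Mb, genes called within 5 Mb, up to 4 of smallest p in each family, and the 3 most alike in pattern. Marker lists not given above had these calls in KO against WT at 6 months: endothelium 0 of 10, macrophage 1 of 10 higher, Schwann cells and myelin 2 of 7 lower, skeletal muscle 1 higher and 1 lower of 3, erythroid 0 of 6 and atria 1 of 3 higher. Alternatives covered the pseudocount, the filter, scaling, the model, Xist class, replicate block and leaving out each library.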

Additional observations from a re-analysis of the deposited data

Results flagged for a closer look

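The KO effect on Fat1 differed between the ages, by 1.26 on the log2 scale (1.40 at 6 months, 0.13 at 6 weeks), and the difference itself was tested. The same held for Stox2, whose effect was larger at 6 months by 1.03 (0.64 against -0.39). Among WT libraries at 6 months, Irf2 stood at 289.3 normalised counts in the second library, apart from the other 4 at 360.6 to 377.5. It was the only such library in 33 sets of a gene and a group that were checked, and chance sets a library apart in about 1 of 20 sets.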

How the results depend on the processing

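Of 5 calls on the 10 neighbours, 4 held in every alternative run: both of Fat1, the KO rise of Stox2 and the vector fall of Enpp6. Of 35 sets of a neighbour and a comparison that did not pass, 32 passed under no alternative, and 24 of 690 values changed sign, none called. Counts of neighbours called, leaving out each library in turn, were 2 to 3 for KO against WT at 6 months, 2 to 4 for KO+AAV against KO (4 without the second KO+AAV library) and 0 to 1 for KO+AAV against WT. The KO rise of Enpp6 also missed the threshold after quantile normalisation (adjusted p = 0.0798 by limma).

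Counts over all genes moved more. At 6 weeks 78 genes passed, 36 with libraries scaled to equal totals, 189 with Xist class as a covariate (chosen after seeing the data) and 7 to 154 leaving out each library. For KO against WT at 6 months 2189 passed, 1381 without both KO libraries of higher Sorbs2. For KO+AAV against KO 1509 passed, 542 with Xist class as a covariate, 332 without Xist libraries and 571 to 1816 leaving out each library. For KO+AAV against WT 178 passed, 36 without Xist libraries, 102 in a model of those groups alone and 108 to 472 leaving out each library. The cause was not tested. Equal totals shifted the median of all genes by 0.16 in KO against WT at 6 months and changed the split from 1091 higher and 1098 lower to 1775 and 653. The other splits became 521 and 1017 for KO+AAV against KO (from 745 and 764), 158 and 82 for KO+AAV against WT (from 82 and 96), and 27 and 9 at 6 weeks (from 50 and 28). Fat1, Enpp6 and Stox2 then rose in KO by 1.55, 1.09 and 0.79.

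The main model did not pair the 6-month groups by replicate number. Of 13 like-numbered pairs, 7 correlated above 0.1 (range -0.391 to 0.253). Unlike-numbered pairs were not set beside them, so these values cannot decide whether the numbers mark pairs. With the replicate block 2071, 1764 and 183 genes passed in KO against WT, KO+AAV against KO and KO+AAV against WT, and 3, 3 and 0 neighbours, Stox2 joining in the second (adjusted p = 0.0406 by limma). No paired analysis was possible at 6 weeks because the columns carry no number that matches the labels.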

Other observations

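The genes within 5 Mb that passed in KO against WT beyond Stox2 lie far from Sorbs2. Pdgfrl, named for its likeness to the platelet-derived growth factor receptor, lies 4.52 Mb proximal, rose by 1.39 in KO (adjusted p = 0.00925 by limma) and fell by 1.68 with the vector (adjusted p = 0.00773), and its rise missed the threshold without both KO libraries of higher Sorbs2 (adjusted p = 0.0732 by limma). Its neighbour Slc7a2, a carrier of cationic amino acids at 4.59 Mb, rose by 1.16 (adjusted p = 0.00996 by limma) and fell by 1.30 with the vector (adjusted p = 0.0119). That rise did not pass without both KO libraries of higher Sorbs2 (adjusted p = 0.071 by limma) or among libraries without Xist (0.0995), nor did the fall with Xist class as a covariate (0.0684). On the distal side, Tenm3, a teneurin of cell adhesion at 2399.8 kb, rose by 0.69 (adjusted p = 0.0264 by limma) and fell by 1.26 with the vector (adjusted p = 0.00235), and its rise missed the threshold in 7 of 20 alternatives. Mtus1 and Zdhhc2 were chosen after their values were seen: the first fell by 0.75 with the vector (adjusted p = 0.0134 by limma), and the second, at 5.00 Mb, fell by 1.34 from WT to KO+AAV (adjusted p = 0.0456). These calls were lost in 3 of 19 and 13 of 18 alternatives, among them the libraries without Xist (adjusted p = 0.0703 and 0.238 by limma).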
